A study of Drosophila melanogaster with 12 samples.

Results

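Antimicrobial peptides are the secreted effectors of humoral immunity in the fly. The 10 genes described here were chosen by name, as the rows with these symbols in the deposited dm6 transcript table: the diptericins DptA and DptB, the attacins AttA, AttB, AttC and AttD, the cecropins CecA1 and CecC, drosomycin (Drs) and metchnikowin (Mtk). All 10 were in the table, which held 17816 genes, and all 10 passed the filter on low counts. Messenger RNA was sequenced from heads of Drosophila melanogaster, brain included, in 12 libraries, 3 in each of 4 groups. Control flies were UAS-dicer2/+;tim(UAS)-Gal4/+. Knockdown flies carried UAS-dicer2 over UAS-dppil4 RNAi, together with tim(UAS)-Gal4/+, so that a hairpin against dppil4 (CG5808) was expressed where the tim driver is active, in the clock cells. Both genotypes thus carried the dicer2 transgene and the driver, and the hairpin transgene was in the knockdown flies alone. Entrainment was to days of 12 h light and 12 h dark, and flies were taken on the fourth day at ZT8, in the light, and at ZT16, in the dark. Age, sex, the number of flies in a library and whether the libraries of a group came from separate cultures are not given in the labels, so p-values measure the spread between these libraries, which may be technical. The series addresses the role of dPPIL4 in the oscillation of PERIOD, and the comparisons below ask how the 10 peptide genes differed between the genotypes and between the times.

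In flies, the fat body makes most of the circulating peptides, with further production by hemocytes and by epithelia, and the head holds fat body of its own. These genes are driven by 2 branches of signalling. In the Imd branch, peptidoglycan is sensed by the receptor PGRP-LC and the NF-kappaB factor Relish (Rel) is activated; diptericins, attacins and cecropins, which act mainly on Gram-negative bacteria, are its usual readouts. In the Toll branch, the ligand Spatzle activates the receptor Toll and the NF-kappaB factors Dif and dorsal; drosomycin, mainly an antifungal peptide, is its usual readout, and metchnikowin responds to both branches. In bulk heads, fewer cells of a type and less RNA per cell cannot be told apart.

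All 10 genes lie on the plus strand, and several are tandem neighbours. In dm6 coordinates, DptA (2R, 18865765 to 18866260) and DptB (2R, 18867391 to 18867895) are 1130 bases apart, and AttA (2R, 14747362 to 14748215) and AttB (2R, 14749223 to 14750165) are 1007 bases apart. AttC is at 13393705 to 13394667 on 2R and AttD at 17625268 to 17626086 on 3R. CecA1 (3R, 30210874 to 30211273) lies 882 bases from its near copy CecA2 and 5210 bases from CecC (3R, 30216484 to 30216938). Drs is at 3369556 to 3369942 on 3L, and Mtk, at 15408846 to 15409113 on 2R, lies within an intron of Stacl. DptA, Drs and Mtk have 1 exon each and the others 2. On the opposite strand, CG43109 shares 48 exon bases with DptB and CG4744 shares 53 with AttC. Without correction for length, those neighbours stood at no more than 0.716 and 0.305 CPM (counts scaled to the TMM-adjusted library size) in any library, against at least 2.87 CPM for DptB and 7.63 CPM for AttC. Stacl, on the same strand as Mtk, shares 0 exon bases with it. Stacl stood at 325 to 435 CPM over the libraries, against 8.24 to 166 CPM for Mtk. Whether reads from the Stacl intron add to Mtk was not tested. AttA and AttB, and CecA1 and CecA2, are near-identical copies, between which the authors' estimation may split reads, so the level of each copy is uncertain.

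Expected counts summed to between 36885481 and 37676778 in a ZT8 library and between 25844821 and 31848667 in a ZT16 library, so time and depth cannot be told apart. The hairpin's target CG5808 stood at 4.81 to 4.93 CPM in control ZT8 and at 4.34, 2.91 and 4.49 CPM in knockdown ZT8, so libraries 1 and 3 lay close to control. At ZT16 it stood at 5.16 to 6.17 CPM in control and 3.71 to 4.46 CPM in knockdown. The genotypes did not overlap at either time, with knockdown lower, as for 16.4% of all tested genes at ZT8 and 22.2% at ZT16. The 10 head markers, neuronal, glial and retinal, were all present. They summed to 60544 to 68937 CPM in the control libraries and to 55288 to 58968 CPM in the knockdown libraries, without overlap, and 5 of 10 were called lower in knockdown at ZT8, 2 at ZT16 and 5 with the times averaged, while 1 (Syt1) was higher at ZT16. Of all tested genes, 6.76%, 11% and 14.1% were called lower in these comparisons, and 11.2% were called higher at ZT16. In 2 libraries the peptide genes stood apart from the rest of their group. Knockdown ZT8 library 3 held them at 4.05 times (AttD) to 39.5 times (CecC) the mean of the other 2 knockdown ZT8 libraries. Control ZT16 library 1 held them at 1.81 times (CecC) to 9.37 times (AttD) the mean of the other 2 control ZT16 libraries. Knockdown ZT16 library 3 was also the highest of its group, at 1.39 times (AttB) to 7.52 times (CecC) the mean of the other 2. Control ZT8 library 1 differed from its group too, but in both directions. It was the highest for DptA, AttA, AttB, AttC, CecA1 and CecC and the lowest for the other genes. AttB stood there at 159.7 CPM, against 65.5 and 69.9, and Drs at 17.0 CPM, against 50.4 and 49.2. Without it, 2735 genes were called between genotypes at ZT8, against 1671 with all libraries. In both fits 0 of the 10 peptide genes were called at ZT8. Other marker lists moved with the 2 libraries that stood apart. In knockdown ZT8 library 3 the 17 fat body markers summed to 60018 CPM, against 31478 and 35983 in its group and 19221 to 28436 in control ZT8, and the 15 hemocyte markers to 3331 CPM, against 1522 and 1827 in its group. The yolk protein genes Yp1, Yp2 and Yp3 made up most of the fat body sum there, at 16611, 12585 and 16677 CPM. In the other 2 libraries of the group they stood at 8400 and 10647, 4802 and 5885, and 7302 and 8624 CPM. The sum therefore mainly follows yolk genes, and the sex of the flies is not given. Among the rest, apolpp stood at 9668 CPM there, against 6339 and 6564 CPM. Single fat body genes did not all follow: the storage protein gene Lsp2 stood at 8.30 CPM there and at 855 and 525 CPM in the other 2. In control ZT16 library 1 the 12 midgut enzyme markers summed to 2119 CPM, against 329 to 743 in all other libraries, and the 14 ovary and eggshell markers to 486 CPM, against 1.54 to 10.1. In the control ZT16 group 0 midgut and 1 ovary marker were at 0 reads, against 4 to 6 and 3 to 6 in the other groups. Between genotypes, the shares of all tested genes called higher were 8.84% at ZT8 and 11.2% at ZT16, and those called lower 6.76% and 11%. Beside these, 5 of 16 tested fat body markers were higher in knockdown at ZT8 and 1 at ZT16, with 0 lower. Of 15 hemocyte markers, 0 were called at ZT8 and 2 (lz and srp) were lower at ZT16. The summed hemocyte markers were nonetheless higher in knockdown at ZT16, at 3018 to 3279 CPM against 2453 to 2606 in control, and the median log2 fold change of the list was 0.21. Without both libraries that stood apart, 9 of the 15 hemocyte markers were called lower in knockdown at ZT8, and at ZT16 5 were higher and 1 lower. Of the fat body markers 2 were higher at ZT8 and 1 at ZT16, with 0 lower. Of the head markers 5 were lower at ZT8 and 2 at ZT16, with 1 higher at ZT16. The shares of all tested genes were then 8.36% lower and 11.5% higher at ZT8, and 9.4% and 9.73% at ZT16. The part of these tissues in the results was not tested. The calls of the peptide genes and the counts of the pathway lists between genotypes are therefore given with all 12 libraries and without these 2. They were picked out by the values of the peptide genes themselves, so tests without them are a description of how far the result rests on them and not separate evidence.

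**Figure D1:**
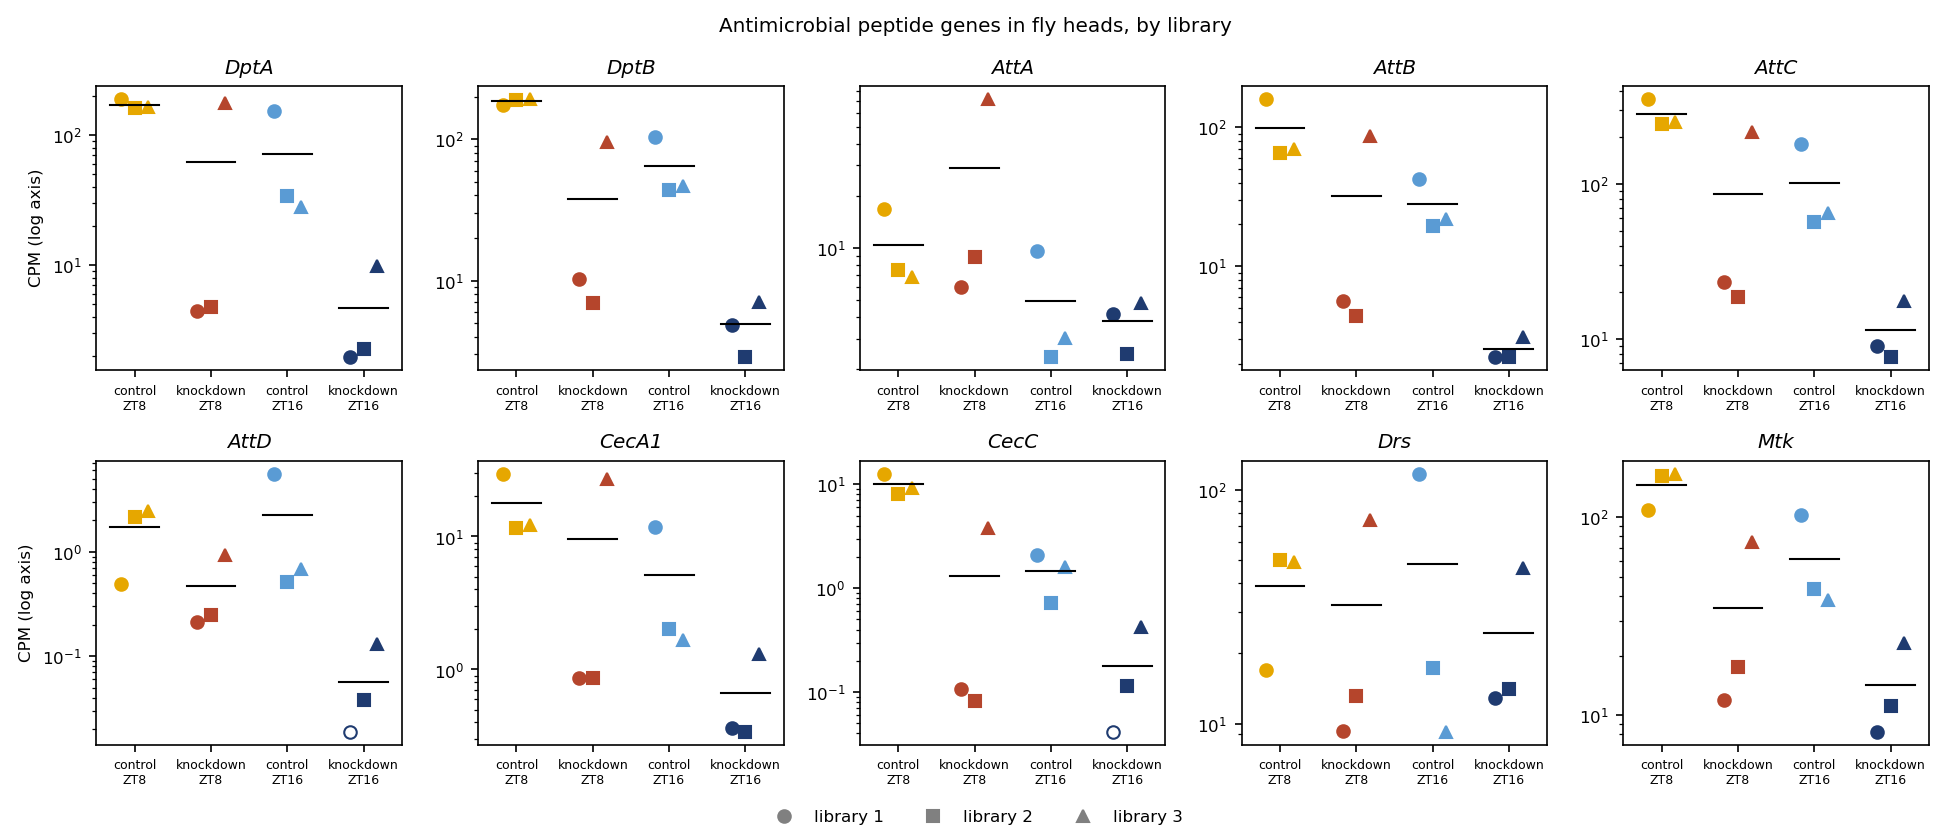
Level of each of the 10 genes in every library, in CPM on a log axis, by group. Markers give library 1, 2 and 3, the bar is the mean of the 3, and open circles at the bottom stand for 0 reads. Knockdown ZT8 libraries 1 and 2 lie below control ZT8 for every gene but AttA, and library 3 lies within the control ZT8 range for 4 genes, below it for 4 and above it for 2.

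The diptericins were low in every knockdown library at ZT16 and in a pair of the 3 at ZT8. DptA stood at 190.1, 161 and 165 CPM in control ZT8 and at 4.42, 4.82 and 176 CPM in knockdown ZT8. At ZT16 it stood at 154, 34.0 and 27.9 CPM in control and at 1.97, 2.27 and 9.94 CPM in knockdown. At ZT8 a pair of knockdown libraries lay far below the controls and the third lay among them; at ZT16 every knockdown library lay below every control. The log2 fold change of DptA in knockdown against control was -1.48 ± 1.33 (SE) at ZT8 (edgeR adjusted p = 0.511) and -3.89 ± 1.59 at ZT16 (edgeR adjusted p = 0.114), so neither passed the threshold of 0.05. DptB stood at 175.5, 189.6 and 193 CPM in control ZT8 and at 10.3, 6.89 and 95.5 CPM in knockdown ZT8. At ZT16 it stood at 104, 43.5 and 47.0 CPM in control and at 4.82, 2.87 and 7.02 CPM in knockdown. The genotypes did not overlap at either time. DptB fell at ZT16, with a log2 fold change of -3.71 ± 1.04 (edgeR adjusted p = 0.0370). At ZT8 its value was -2.31 ± 0.90, which did not pass (edgeR adjusted p = 0.127). The ZT16 call is a narrow one: it was lost in 9 of the 12 fits that left out 1 library, with an adjusted p of up to 0.118.

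Among the attacins, AttB and AttC followed the diptericins. AttC stood at 354, 245 and 252 CPM in control ZT8 and at 23.2, 18.5 and 217 CPM in knockdown ZT8. At ZT16 it stood at 182, 57.1 and 64.7 CPM in control and at 8.96, 7.63 and 17.6 CPM in knockdown. The genotypes did not overlap at either time, although knockdown ZT8 library 3 came close to the lowest control. For AttC, the fitted log2 fold change was -1.71 ± 0.93 at ZT8 (edgeR adjusted p = 0.259) and -3.14 ± 1.04 at ZT16 (edgeR adjusted p = 0.0613). AttB stood at 159.7, 65.5 and 69.9 CPM in control ZT8, at 5.65, 4.40 and 86.4 CPM in knockdown ZT8, at 42.5, 19.4 and 21.8 CPM in control ZT16 and at 2.25, 2.23 and 3.12 CPM in knockdown ZT16. It overlapped between genotypes at ZT8, through knockdown library 3 alone, and did not at ZT16. Its log2 fold change was -1.61 ± 1.02 at ZT8 (edgeR adjusted p = 0.332) and -3.45 ± 1.25 at ZT16 (edgeR adjusted p = 0.0816).

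AttD and AttA did not follow that pattern closely. AttD, an attacin that unlike the others lacks a signal peptide, had few reads: 18, 86 and 99 in control ZT8, 8, 9 and 36 in knockdown ZT8, 165, 15 and 20 in control ZT16, and 0, 1 and 4 in knockdown ZT16. The genotypes overlapped at ZT8 and did not at ZT16, where control library 1 held by far the most. AttD fell at ZT16, with a log2 fold change of -5.14 ± 1.41 (edgeR adjusted p = 0.0287), a fold that rests on those few knockdown reads. Without control ZT16 library 1 the AttD value was -3.22 (edgeR adjusted p = 0.118), and the call was also lost without each of the 3 knockdown ZT16 libraries in turn (edgeR adjusted p = 0.0912, 0.0916 and 0.0587 without libraries 1, 2 and 3). AttA stood at 16.8, 7.46 and 6.84 CPM in control ZT8, at 5.97, 8.83 and 72.4 CPM in knockdown ZT8, at 9.56, 2.35 and 3.04 CPM in control ZT16 and at 4.18, 2.46 and 4.82 CPM in knockdown ZT16. Its genotypes overlapped at both times, and its highest library of all 12 was knockdown ZT8 library 3. AttA had a log2 fold change of 1.49 ± 0.95 at ZT8 (edgeR adjusted p = 0.337) and -0.38 ± 1.09 at ZT16 (edgeR adjusted p = 0.832). Without knockdown ZT8 library 3 its ZT8 value was -0.47 ± 0.66, on the other side of 0.

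The cecropins, short helical peptides that disrupt bacterial membranes, again split the knockdown ZT8 libraries. CecA1 stood at 29.7, 11.5 and 12.3 CPM in control ZT8, at 0.857, 0.858 and 27.2 CPM in knockdown ZT8, at 11.8, 2.01 and 1.67 CPM in control ZT16 and at 0.362, 0.340 and 1.31 CPM in knockdown ZT16. The genotypes overlapped at ZT8 through knockdown library 3 and did not at ZT16, where knockdown library 3 lay just under the lowest control. CecA1 had a log2 fold change of -0.88 ± 1.25 at ZT8 (edgeR adjusted p = 0.694) and -2.88 ± 1.72 at ZT16 (edgeR adjusted p = 0.261). CecC stood at 12.7, 8.12 and 9.14 CPM in control ZT8, at 0.107, 0.0831 and 3.76 CPM in knockdown ZT8, at 2.10, 0.716 and 1.61 CPM in control ZT16 and at 0, 0.113 and 0.426 CPM in knockdown ZT16. In reads, the 3 knockdown ZT16 libraries held 0, 3 and 13. CecC was lower in every knockdown library than in every control of the same time. Its log2 fold change was -2.91 ± 1.09 at ZT8 (edgeR adjusted p = 0.106) and -2.92 ± 1.49 at ZT16 (edgeR adjusted p = 0.188).

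Drosomycin and metchnikowin, the pair with a Toll input, differed from each other. Drs stood at 17.0, 50.4 and 49.2 CPM in control ZT8, at 9.27, 13.1 and 74.7 CPM in knockdown ZT8, at 118, 17.3 and 9.22 CPM in control ZT16 and at 12.9, 14.1 and 46.2 CPM in knockdown ZT16. Its genotypes overlapped at both times, with 1 high library in each group but control ZT8. In Drs the log2 fold change was -0.26 ± 1.13 at ZT8 (edgeR adjusted p = 0.907) and -0.97 ± 1.15 at ZT16 (edgeR adjusted p = 0.585). Mtk stood at 109, 162 and 166 CPM in control ZT8, at 11.9, 17.5 and 75.4 CPM in knockdown ZT8, at 103, 43.6 and 38.1 CPM in control ZT16 and at 8.24, 11.1 and 23.1 CPM in knockdown ZT16. Its genotypes did not overlap at either time, knockdown ZT8 library 3 included. In Mtk the log2 fold change was -2.06 ± 0.74 at ZT8 (edgeR adjusted p = 0.0995) and -2.11 ± 0.77 at ZT16 (edgeR adjusted p = 0.0834). Without both libraries that stood apart the Mtk values were -3.30 and -1.51, and the difference between the times was not called in either fit (edgeR adjusted p = 0.982 with all libraries and 0.182 without the 2).

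Counted over the family, 0 of 10 genes were called at ZT8, where 6.76% of the 10717 tested genes were called lower and 8.84% higher. At an unadjusted p under 0.05 there were 3 (CecC, DptB and Mtk), DESeq2 called 1 (Mtk) and limma on log2(TPM + 0.1) called 2 (DptB and Mtk). DESeq2 gave no adjusted p for DptA, DptB, AttB, AttC and CecA1, here and in every other comparison. At ZT16 2 of 10 genes, DptB and AttD, were called lower, against 11% of all tested genes. The family's median log2 fold change was -1.66 at ZT8 and -3.03 at ZT16, and that of all tested genes was -0.0054 and -0.017. Values below 0 were found for 9 of 10 genes at ZT8 and 10 of 10 at ZT16, against 51.2% and 52.9% of all genes. The knockdown group lay below control without overlap for 4 of 10 genes at ZT8 (DptB, AttC, CecC and Mtk; 16.4% of all tested genes) and for 8 of 10 at ZT16 (all but AttA and Drs; 22.2%). It did so at both times for DptB, AttC, CecC and Mtk, as for 7.25% of tested genes. Within a group, the highest library stood at up to 45.2 times the lowest (CecC in knockdown ZT8), leaving aside CecC and AttD in knockdown ZT16, where 1 library held 0 reads.

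**Figure D2:**
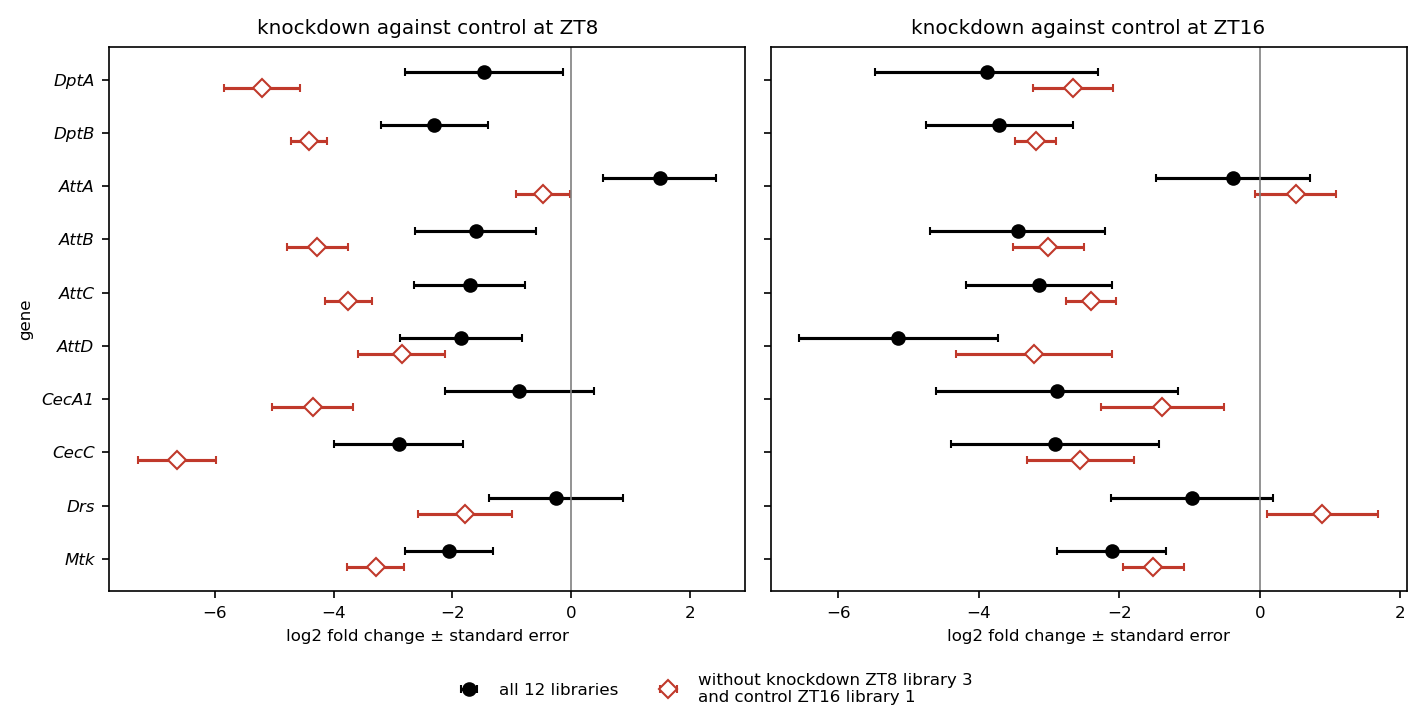
Log2 fold change of knockdown against control with its standard error, for each of the 10 genes, at ZT8 and at ZT16. Black circles are the fit of all 12 libraries and red open diamonds the fit without knockdown ZT8 library 3 and control ZT16 library 1; without them the ZT8 values move further below 0 for every gene but AttA, which changes sign at both times, and Drs changes sign at ZT16.

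Averaged over both times, 6 of 10 genes were lower in knockdown, against 14.1% of all tested genes. With all libraries AttD had the widest fall, with a log2 fold change of -3.50 ± 0.88 (edgeR adjusted p = 0.0154). DptB followed at -3.01 ± 0.69 (edgeR adjusted p = 0.0130) and CecC at -2.91 ± 0.91 (edgeR adjusted p = 0.0405). The AttD value rests on 0, 1 and 4 reads in the knockdown ZT16 libraries and on 165 in control ZT16 library 1. Without both libraries that stood apart it was -3.04, and CecC (-4.60), DptA (-3.93), DptB (-3.80), AttB (-3.64) and AttC (-3.08) fell further. AttB (-2.53 ± 0.81, edgeR adjusted p = 0.0468), AttC (-2.43 ± 0.70, edgeR adjusted p = 0.0318) and Mtk (-2.08 ± 0.54, edgeR adjusted p = 0.0204) fell as well. DptA (-2.68 ± 1.04, edgeR adjusted p = 0.0869), CecA1 (-1.88 ± 1.07, edgeR adjusted p = 0.223), Drs (-0.62 ± 0.81, edgeR adjusted p = 0.595) and AttA (0.56 ± 0.72, edgeR adjusted p = 0.594) did not pass the test. The calls of DptB and AttD held whichever library was left out, with adjusted p of at most 0.0407 and 0.0450. Those of AttB, AttC, CecC and Mtk were lost in 11, 9, 10 and 3 of the 12 fits. With the near-identical copies summed, AttA plus AttB was not called (-1.60 ± 0.72, edgeR adjusted p = 0.133), and the count was 5. The count was 3 of 10 without control ZT16 library 1 and 8 of 10 without knockdown ZT8 library 3, where 12.7% and 13.9% of tested genes were called lower. Without both libraries it was 8 of 10, all but AttA and Drs, against 14.6%, a description only, as these libraries were picked by the same genes.

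Leaving out knockdown ZT8 library 3 and control ZT16 library 1 together, 8 of 10 genes were lower in knockdown at ZT8, all but AttA and Drs, where 8.36% of 10785 tested genes were called lower. These 2 libraries were picked by the values of the same genes. The counts and p-values without them are therefore a description and not separate evidence. CecC then had a log2 fold change of -6.64 ± 0.65 (edgeR adjusted p = 3.43e-04), DptA of -5.21 ± 0.64 (edgeR adjusted p = 0.00274) and DptB of -4.42 ± 0.31 (edgeR adjusted p = 1.85e-04). Mtk (-3.30 ± 0.48) and AttD (-2.86 ± 0.74) were the smallest of the 8. At ZT16 4 of 10 genes were then lower (DptA, DptB, AttB and AttC; 9.4% of tested genes), with DptB at -3.19 ± 0.29 (edgeR adjusted p = 6.52e-04), and the median of the family was -2.48. With knockdown ZT8 library 3 alone left out, 7 of 10 were called lower at each time, against 6.38% of tested genes at ZT8 and 11.2% at ZT16; with control ZT16 library 1 alone left out, 0 were called at either time, against 7.58% and 7.37%. Drs was called in none of these fits: its values without both libraries were -1.79 ± 0.79 at ZT8 (edgeR adjusted p = 0.171) and 0.89 ± 0.79 at ZT16 (edgeR adjusted p = 0.494).

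**Figure D3:**
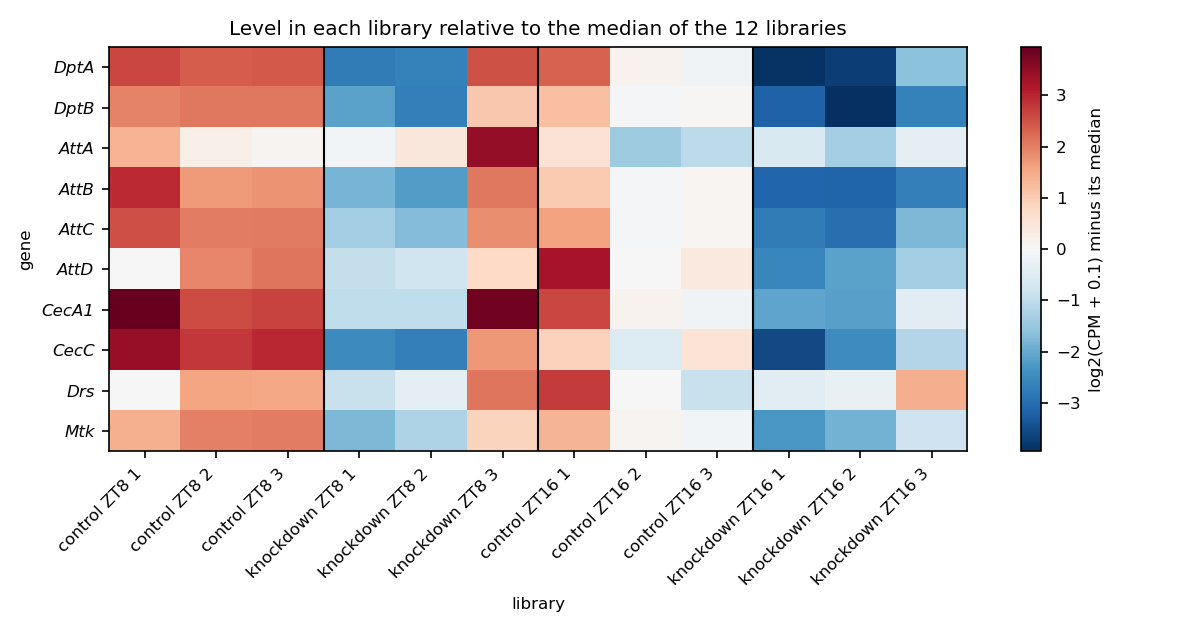
Level of each gene in each library as log2(CPM + 0.1) minus that gene's median over the 12 libraries; red is above the median and blue below, and black lines part the groups. Most rows share 1 pattern of columns: high in control ZT8, in knockdown ZT8 library 3 and in control ZT16 library 1, and lowest in knockdown ZT16.

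With time, the peptide genes tended to lower values at ZT16, and 0 of 10 were called in either genotype. In control, 11.8% of all tested genes were called lower at ZT16, and the family's median log2 fold change of ZT16 against ZT8 was -1.37, against 0.023 over all genes. The group at ZT16 lay below that at ZT8 without overlap for 6 of 10 genes (DptA, DptB, AttB, AttC, CecC and Mtk; 18.9% of all tested genes). CecC, the only gene with an unadjusted p under 0.05, had a log2 fold change of -2.75 ± 1.09 (edgeR adjusted p = 0.101), while DptB was at -1.52 ± 0.88 (edgeR adjusted p = 0.249) and Mtk at -1.24 ± 0.72 (edgeR adjusted p = 0.251). AttD (0.40 ± 0.94) and Drs (0.31 ± 1.13) were above 0, through control ZT16 library 1: without it they were at -1.52 and -1.55. On the TPM scale AttD and Drs were at -0.25 and -0.46 with all libraries. Limma called 0 in control, as did DESeq2 among the genes to which it gave an adjusted p. Leaving out both libraries that stood apart, 8 of 10 genes were lower at ZT16 in control, all but AttD and Drs, against 9.91% of tested genes, with DptB at -2.04 ± 0.27 (edgeR adjusted p = 0.00259) and CecC at -3.09 ± 0.45 (edgeR adjusted p = 0.00229). The counts and p-values without the 2 libraries are a description, as these libraries were picked by the values of the same genes. The lower depth of the ZT16 libraries goes with the contrast of the times.

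In knockdown, 11.4% of all tested genes were called lower at ZT16 and none of the 10 was. The group at ZT16 lay below that at ZT8 for AttA, AttB, AttC and AttD (4 of 10, against 22.6% of tested genes). The unadjusted p was under 0.05 for 5 genes (AttA, AttB, AttC, DptA and DptB), and limma called 0. DESeq2 called 2 (AttA and AttD) among the genes to which it gave an adjusted p. AttB had a log2 fold change of -3.66 ± 1.25 (edgeR adjusted p = 0.0679) and DptA of -3.67 ± 1.58 (edgeR adjusted p = 0.132). The median of the family was -2.92 with all libraries and -0.55 without the 2 that stood apart. Without them 0 of 10 were called, against 12.3% of tested genes called lower, and DptA stood at 0.076 and Mtk at -0.048.

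The interaction, the effect of knockdown at ZT16 less its effect at ZT8, was called for 0 of 10 genes by edgeR and by limma. DESeq2 also called 0, but gave no adjusted p for 5 of the 10. At an unadjusted p under 0.05 there were 0, while 4.18% of all tested genes were called in either direction. Interaction values ran from -3.29 ± 1.83 for AttD (edgeR adjusted p = 0.331) to -0.0097 for CecC, with a median of -1.63. Leaving out both libraries that stood apart turned the sign for all but AttD: the median became 1.57, with CecC at 4.09 ± 1.35 (edgeR adjusted p = 0.137) and DptA at 2.55 ± 0.84 (edgeR adjusted p = 0.159); 0 of 10 were called there, against 4.92% of tested genes called in either direction. A difference in the knockdown effect between the times was thus not shown, and its direction turned with these libraries.

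Levels can be set beside each other between genes only per length, here as the authors' TPM, a level scaled by transcript length. Mtk was the highest of the 10 in every group, with a mean of 3303 ± 939 TPM (SD, n = 3) in control ZT8, 750.2 ± 776 in knockdown ZT8, 1298 ± 651 in control ZT16 and 299 ± 177 in knockdown ZT16. AttD was the lowest in every group, at 4.93 ± 3.20, 1.20 ± 1.06, 5.72 ± 7.22 and 0.140 ± 0.171 TPM. In control ZT8 the order was Mtk, DptB (1173 ± 135), DptA (899 ± 20.2), AttC (608 ± 86.8), Drs (337 ± 177), AttB (246 ± 115), CecA1 (199 ± 98.7), CecC (84.1 ± 13.9), AttA (26.1 ± 12.1) and AttD. There, the library ranges of Drs and AttB overlapped, as did those of AttB and CecA1, and all other neighbours in the order were apart. In knockdown ZT8 every neighbouring pair overlapped, since library 3 stretched each range. In knockdown ZT16 Drs was at position 2, at 190.1 ± 151 TPM, above DptB (28.0 ± 12.4) without overlap. In control ZT16 it was at position 3, at 373 ± 457 TPM, and overlapped DptB. Drs was at position 5 in control ZT8 and at position 3 in knockdown ZT8. The 10 genes together took 5831 to 7509 TPM in control ZT8. They took 483, 599 and 4802 TPM in knockdown ZT8, 4885, 1775 and 1566 TPM in control ZT16 and 348, 383 and 1024 TPM in knockdown ZT16.

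A further property separated the genotypes in every library, the 2 that stood apart included: the share of AttA in the summed expected counts of AttA and AttB. It was 9.54%, 10.2% and 8.91% in control ZT8 and 18.4%, 10.8% and 12.2% in control ZT16. In knockdown it was 51.4%, 66.7% and 45.6% at ZT8 and 65.0%, 52.4% and 60.7% at ZT16. The highest control (18.4%, 95% Wilson interval 16.5% to 20.4%, 1535 reads) lay below the lowest knockdown (45.6%, 44.3% to 46.8%, 6088 reads), which was library 3 of knockdown ZT8. The mean was 11.7% ± 3.47 in control and 57.0% ± 8.43 in knockdown (SD, n = 6 each), a difference of 45.3 percentage points. An exact two-sided permutation test of genotype within time gave p = 0.005, the smallest that its 400 arrangements allow, and 0.01 after Benjamini-Hochberg adjustment over 4 shares. These shares were chosen after the values were seen, and the intervals hold only the error of counting, as reads copied by PCR are not separate molecules. For near-identical copies a share also rests on how the authors' estimation split reads between them. Whether expression of AttA relative to AttB differed was not tested. With the copies summed, AttA plus AttB stood at 176, 73.0 and 76.7 CPM in control ZT8, 11.6, 13.2 and 159 CPM in knockdown ZT8, 52.0, 21.7 and 24.9 CPM in control ZT16 and 6.43, 4.69 and 7.94 CPM in knockdown ZT16. The log2 fold change of that sum was -0.83 ± 0.95 at ZT8 (edgeR adjusted p = 0.613) and -2.37 ± 1.09 at ZT16 (edgeR adjusted p = 0.153). Over both times it was -1.60 ± 0.72 (edgeR adjusted p = 0.133), so the call of AttB alone was not kept by the sum.

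The share of CecA1 in CecA1 and CecA2 also separated the genotypes, but narrowly. Like that of AttA, it was chosen after the values were seen and rests on how the authors' estimation split near-identical copies. It was 59.8% to 71.9% in control and 41.3% to 57.8% in knockdown, 15.4 percentage points lower in the mean (64.8% ± 3.99 and 49.4% ± 6.85, SD, n = 6 each; exact two-sided permutation p = 0.005, adjusted 0.01). The highest knockdown share, 57.8% in ZT8 library 3, lay just below the lowest control share, 59.8% in ZT16 library 3. That control library held 82 reads of both copies, and its interval (48.9% to 69.7%) overlaps that of every knockdown library. The 3 knockdown ZT16 libraries held 19, 16 and 78 reads of both copies. The share of DptA in DptA and DptB, genes that are not near-identical, did not separate the genotypes: it was 47.5% ± 7.67 in control and 44.6% ± 14.7 in knockdown (exact two-sided permutation p = 0.685, adjusted 0.740). Within AttB, the longer of its 2 transcripts, variant B, took 4.27% ± 2.91 of the counts in control and 6.83% ± 9.88 in knockdown (exact two-sided permutation p = 0.740, adjusted 0.740).

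**Figure D4:**
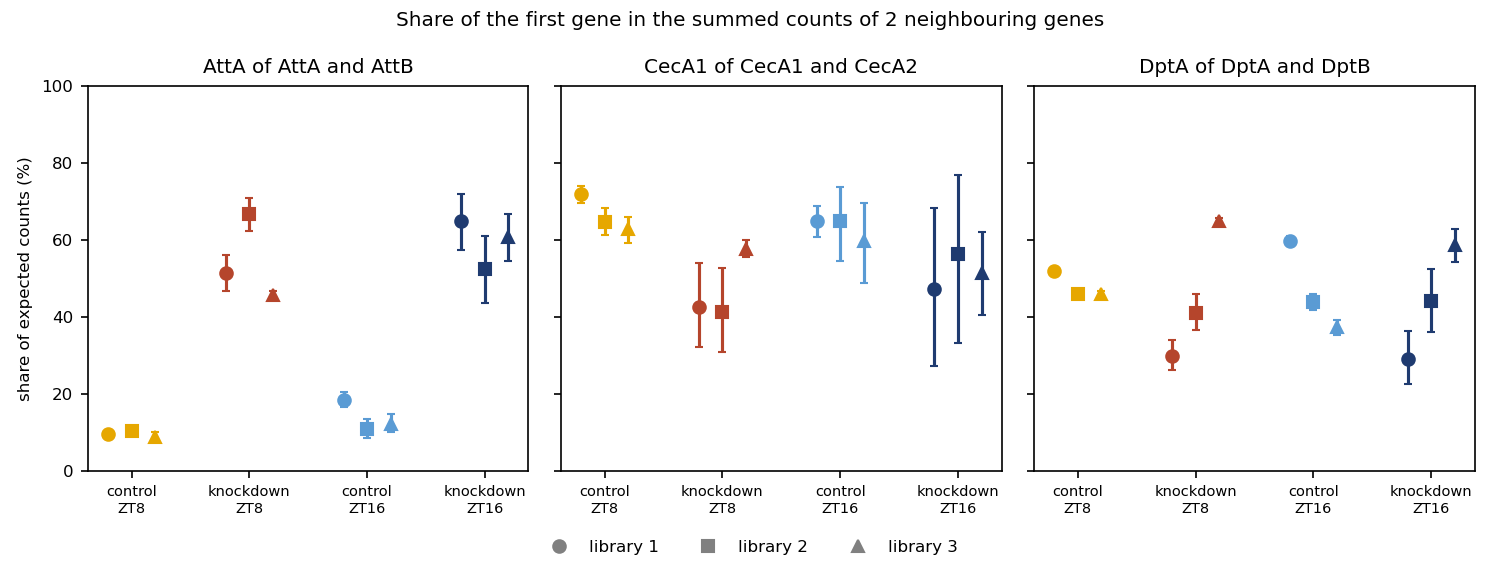
Share of the first gene in the summed expected counts of 2 neighbouring genes, in percent, in every library; bars are 95% Wilson intervals, which cover counting error only. The share of AttA lies at 8.91% to 18.4% in control and 45.6% to 66.7% in knockdown, that of CecA1 is lower in knockdown by 15.4 points in the mean, and that of DptA overlaps.

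The other effectors of the same response were called in both directions. Of all tested genes, 8.84% were called higher and 6.76% lower at ZT8, 11.2% and 11% at ZT16, and 14.7% and 14.1% over both times. Of 12 tested genes among 18 listed, 1 rose and 0 fell at ZT8, and 1 rose and 2 fell at ZT16, with median log2 fold changes of -0.24 and -1.43. Def, the gene of defensin, which acts on Gram-positive bacteria, fell at ZT16 by 3.10 ± 0.66 on the log2 scale (edgeR adjusted p = 0.00939), from 4.85, 2.86 and 2.63 CPM in control to 0.322, 0.340 and 0.525 CPM in knockdown. CG33470 (BaraA1), which encodes a precursor of several small immune peptides, fell at ZT16 by 1.13 ± 0.14 (edgeR adjusted p = 4.11e-04), from 670, 621 and 606 CPM to 259, 296 and 311 CPM. Drsl5, a relative of drosomycin, rose at ZT8 (1.16 ± 0.23, edgeR adjusted p = 0.0102) and at ZT16 (1.24 ± 0.23, edgeR adjusted p = 0.00599). Over both times 2 rose (Drsl5 and Drsl4) and 4 fell (CG33470, Def, CecB and Listericin); those of CecB and Listericin were lost in 7 and 10 of the 12 fits that left out 1 library, with adjusted p of up to 0.119 and 0.109. Without both libraries that stood apart CecB stood at -5.02 and Listericin at -1.15 over both times, and both were called. Of the 12 effectors, 2 were then higher and 6 lower at ZT8 (CecB, Def, edin, Listericin, CecA2 and Dro), against 11.5% and 8.36% of tested genes. At ZT16 1 was higher and 3 lower, against 9.73% and 9.4%, and over both times 2 were higher and 7 lower, against 15.8% and 14.6%. The calls of Def, CG33470, Drsl4 and Drsl5 held without any 1 library, except that of Drsl5 at ZT8, which was lost without control ZT8 library 2 (edgeR adjusted p = 0.0587) or 3 (0.0558). Drosocin (Dro), the neighbour of AttA at 647 bases, stood at 123, 118 and 114 CPM in control ZT8 and 7.02, 23.8 and 181 CPM in knockdown ZT8, the same split of libraries as the diptericins, and was not called with all libraries (-0.75 ± 1.18, edgeR adjusted p = 0.725).

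In the Imd pathway, small falls were called. Of 16 tested genes 4 fell at ZT8 and 3 at ZT16, and 0 rose, with median log2 fold changes of -0.096 and -0.051. Over all tested genes, 6.76% were called lower and 8.84% higher at ZT8, and 11% and 11.2% at ZT16. Rel stood at 155, 174 and 174 CPM in control ZT8 and 128, 135 and 149 CPM in knockdown ZT8, then at 148, 156 and 160.0 CPM in control ZT16 and 101, 116 and 109.7 CPM in knockdown ZT16. Its genotypes did not overlap at either time, and its knockdown ZT8 library 3 was the highest of its group but under every control. Rel fell by 0.29 ± 0.071 on the log2 scale at ZT8 (edgeR adjusted p = 0.0185) and by 0.50 ± 0.071 at ZT16 (edgeR adjusted p = 7.16e-04). The ZT8 call of Rel was lost without control ZT8 library 2 (edgeR adjusted p = 0.0971) or 3 (0.0951) or knockdown ZT8 library 1 (0.0822) or 2 (0.0582), and the ZT16 call held without any 1 library. Tab2, of the kinase complex upstream of Rel, fell by 0.22 ± 0.045 at ZT8 and 0.45 ± 0.046 at ZT16 (edgeR adjusted p = 0.00835 and 8.25e-05), and akirin, a nuclear cofactor of Rel, by 0.25 ± 0.046 at each time (edgeR adjusted p = 0.00454 and 0.00356). Tab2 lost its ZT8 call without control ZT8 library 2 (edgeR adjusted p = 0.0590) or 3 (0.0573). Diap2, a ubiquitin ligase of the pathway, fell by 0.15 ± 0.038 at ZT8 (edgeR adjusted p = 0.0240), a call lost in 6 of the 12 fits that left out 1 library (adjusted p up to 0.107). The receptor gene PGRP-LC was not called (0.015 ± 0.049 at ZT8 and -0.12 ± 0.050 at ZT16, edgeR adjusted p = 0.872 and 0.111). Without both libraries that stood apart, 4 of 16 were lower at ZT8 (akirin, Rel, Tab2 and Diap2) and 4 at ZT16 (Tab2, Rel, akirin and PGRP-LC), and 0 were higher. The shares of all tested genes called lower were then 8.36% and 9.4%, and those called higher 11.5% and 9.73%.

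Of the 10 tested genes listed here as negative regulators of Imd, several of which are themselves induced by the pathway, 1 was lower in knockdown at ZT8 (PGRP-SB1). At ZT16 4 of 10 were lower, and 0 were higher at either time, with median log2 fold changes of -0.038 and -0.57. Whether PGRP-SB1 restrains the pathway was not tested. Over all tested genes, the shares called lower were 6.76% and 11%, and those called higher 8.84% and 11.2%. The amidase gene PGRP-LB, whose product degrades peptidoglycan, stood at 12.3, 10.5 and 10.4 CPM in control ZT16 and at 4.82, 4.84 and 4.69 CPM in knockdown ZT16, a fall of 1.21 ± 0.23 on the log2 scale (edgeR adjusted p = 0.00554). pirk, an inhibitor of receptor signalling, fell at ZT16 by 1.58 ± 0.37 (edgeR adjusted p = 0.0156), although the call was lost without control ZT16 library 1 (edgeR adjusted p = 0.0561) or knockdown ZT16 library 1 (0.0551) or 3 (0.0532). PGRP-SB1 fell at ZT8 by 0.97 ± 0.19 (edgeR adjusted p = 0.00919) and at ZT16 by 0.64 ± 0.20 (edgeR adjusted p = 0.0422). PGRP-LF fell at ZT16 by 0.65 ± 0.20 (edgeR adjusted p = 0.0402). The ZT16 calls of PGRP-SB1 and PGRP-LF were lost in 8 and 6 of the 12 fits that left out 1 library, with adjusted p of up to 0.145 and 0.131. In knockdown ZT8 library 3, pirk (18.3 CPM against 6.29 and 8.06 in its group) and PGRP-LB (18.6 against 9.67 and 10.4) were also the highest of their group; pirk lay there above every control ZT8 library and PGRP-LB within their range. Without both libraries that stood apart, 4 of the 10 regulators were lower at ZT8 (PGRP-SB1, PGRP-LB, pirk and PGRP-SC2), 1 was higher (trbd), and 5 were lower at ZT16. Over all tested genes, 8.36% were then lower and 11.5% higher at ZT8, and 9.4% were lower at ZT16.

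In the Toll pathway 7 of 20 tested genes rose and 1 fell at ZT8, and at ZT16 1 rose and 2 fell. The median log2 fold changes were 0.18 and 0.0040. Over all tested genes, 8.84% were called higher and 6.76% lower at ZT8, and 11.2% and 11% at ZT16. Of the 7 rises at ZT8, those of GNBP1 and grass held without any 1 library. Without both libraries that stood apart, 3 of the 7 were lost (edgeR adjusted p = 0.0537 for Pli, 0.0592 for psh and 0.0614 for spz). Among the 20 genes, 5 were then higher and 1 lower at ZT8, and 2 higher and 3 lower at ZT16. The shares of all tested genes were 11.5% higher and 8.36% lower at ZT8, and 9.73% and 9.4% at ZT16. GNBP1, a recognition protein upstream of Toll, was higher in knockdown at both times (0.55 ± 0.062 at ZT8 and 0.42 ± 0.063 at ZT16, edgeR adjusted p = 2.01e-04 and 0.00100), and the protease gene grass rose at ZT8 by 0.33 ± 0.068 (edgeR adjusted p = 0.00755). Myd88, the adaptor of the receptor, rose at ZT8 by 0.24 ± 0.057 (edgeR adjusted p = 0.0142), a call lost without control ZT8 library 2 (0.0633) or 3 (0.0655) or knockdown ZT8 library 2 (0.0766). PGRP-SD, a secreted recognition protein, stood at 32.4, 23.7 and 26.0 CPM in control ZT8, at 6.94, 5.23 and 14.2 CPM in knockdown ZT8, at 18.2, 19.7 and 19.1 CPM in control ZT16 and at 2.93, 3.70 and 2.92 CPM in knockdown ZT16. It did not overlap between genotypes at either time, and knockdown ZT8 library 3 was again the highest of its group. PGRP-SD fell at both times, with log2 fold changes of -1.63 ± 0.30 at ZT8 and -2.57 ± 0.34 at ZT16 (edgeR adjusted p = 0.00683 and 9.05e-04), and both calls held without any 1 library. The protease gene spirit fell at ZT16 by 0.49 ± 0.11 (edgeR adjusted p = 0.0106), a call lost without knockdown ZT16 library 1 (edgeR adjusted p = 0.0567). On the TPM scale the median log2 fold change of all genes at ZT8 was -0.14, so the smaller changes of the Imd and Toll genes hold relative to the TMM scaling used here.

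Within groups, the 10 genes moved together from library to library. Over the 45 pairs of genes, Pearson's r of the deviations of log2 CPM from the group means was 0.43 to 0.99 with a median of 0.89 over 12 libraries, and -0.56 to 0.92 with a median of 0.44 without the 2 libraries that stood apart. Those values are a description: the genes share libraries and depth, and the median r was lower without the 2 libraries. Outside the family, the gene most like DptA over the 12 libraries was CG45045 (r = 0.99 and rho = 0.86 of log2 CPM), which was also most like AttC (r = 0.98) and Mtk (r = 0.98). ppk28 was most like DptB (r = 0.97), Tmem18 most like AttB (r = 0.97), and CG43236 most like CecA1 (r = 0.98), followed by CecA2 (r = 0.98). CG33460 was most like CecC (r = 0.98), dmt most like AttD (r = 0.97), CG5599 most like AttA (r = 0.93) and the amidase gene PGRP-SC2 most like Drs (r = 0.91). The likeness of AttA to CG5599 dropped to r = 0.83 and that of Drs to PGRP-SC2 to r = 0.81 over the 10 libraries left without those 2.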

How the data were processed

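RNA was extracted with QIAzol and libraries came from the TruSeq Stranded mRNA chemistry, per the labels' protocols. Reads were aligned with STAR 2.6.0c to dm6 and quantified with RSEM 1.3.1, per the submitters' processing notes, with no strand setting stated in the sources used here. The authors deposited expected counts, FPKM and TPM per transcript, for 35536 transcripts; the expected counts were held as whole numbers. FPKM was used only to check the units, and TPM, which the authors scaled per length, for order between genes. The column names of the control ZT16 libraries lack a digit of the labels' library names and were matched by time and number.

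Expected counts were summed per gene and fitted with edgeR 4.0.16 in R 4.3.3: 1 model of 4 group means over 12 libraries with 8 residual degrees of freedom, filterByExpr at its minimum count of 10, TMM factors, the robust quasi-likelihood F test, and Benjamini-Hochberg adjustment over all 10717 tested genes, with calls at an adjusted p under 0.05. The standard error is the absolute log2 fold change over the square root of F and is rough for genes with few reads. The 118 rRNA genes stayed in the fit. The fit was also run on simulated counts, the outcome of which is not given here and is used for no result. Alternatives were RLE factors, no filter, DESeq2 1.42.0, limma 3.58.1 on log2(TPM + 0.1), the libraries of a comparison alone, a replicate block, no rRNA genes, summed copies, and each library left out; leaving out 2 libraries together was added after the data were seen. All 10 members were named in every comparison; from other lists up to 4 called genes with the smallest p were named for each comparison between genotypes, and the gene most like each member. The members and lists were chosen with earlier results of these data known. No pair of libraries in a group agreed within counting noise over all genes (smallest chi-square per degree of freedom 5.60), so each was counted once.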

Additional observations from a re-analysis of the deposited data

How the results depend on the processing

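The results rest on 3 libraries a group, of which 1 can set the group's mean, and the libraries that stood apart were picked after their values were seen. With each library left out in turn, the number of genes called was 0 to 7 at ZT8, 0 to 7 at ZT16, 2 to 8 over both times, 0 to 3 with time in control, 0 to 2 with time in knockdown and 0 to 0 for the interaction. Without knockdown ZT8 library 3 the counts were 7, 7, 8, 3, 0 and 0 in that order, and without control ZT16 library 1 they were 0, 0, 3, 0, 0 and 0. Leaving out both gave 8, 4, 8, 8, 0 and 0. Counts also moved to 1 at ZT16 with no filter, to 1 at ZT8, 3 over both times and 2 with time in knockdown with DESeq2, to 1 with time in control when only its own libraries were fitted, and to 2 at ZT8 with limma on TPM. DESeq2 gave no adjusted p for DptA, DptB, AttB, AttC and CecA1, so its counts cover the other 5. Replicate numbers did not pair the genotypes at either time or the times in control, where r of same-numbered deviations was not over 0.1 in every pair (-0.17 to 0.273 over all pairs of groups; 8 of 12 libraries correlated best with their own number). Between the times in knockdown the 3 values were 0.106, 0.109 and 0.127, and the count there was 0 with and without the block. With the replicate block the count at ZT16 was 1 and over both times 5. RLE factors and leaving out rRNA genes moved no count. With copies summed the count over both times was 5 against 6, and the other counts did not move. Signs turned for these values. On TPM: control time AttD -0.25 and Drs -0.46, interaction CecC 0.94, Drs 0.41 and Mtk 0.44. CecC in the interaction was 0.0060 with RLE factors and 0.49 with the block. AttA summed with AttB was -0.83 at ZT8 and -1.60 over both times. Without both libraries: AttA -0.47 at ZT8 and 0.51 at ZT16, Drs 0.89 at ZT16, control time AttD -1.51 and Drs -1.55, knockdown time DptA 0.076, CecC 0.99 and Drs 1.13, and interaction DptA 2.55, DptB 1.23, AttA 0.98, AttB 1.27, AttC 1.35, CecA1 2.97, CecC 4.09, Drs 2.68 and Mtk 1.78. With 1 library left out, signs turned within these ranges: AttA -0.47 to 2.02 at ZT8, -0.71 to 0.51 at ZT16 and -0.42 to 1.00 over both times; Drs -1.78 to 0.18, -1.83 to 0.89 and -1.37 to 0.31; control time AttD -1.52 to 0.87 and Drs -1.55 to 0.79; knockdown time DptA -4.86 to 0.072, CecC -4.42 to 0.96 and Drs -1.26 to 1.13; interaction DptA -3.60 to 1.33, DptB -1.87 to 0.72, AttA -2.40 to 0.10, AttB -2.38 to 0.84, AttC -1.90 to 0.62, CecA1 -2.98 to 1.47, CecC -1.66 to 3.72, Drs -1.56 to 1.15 and Mtk -0.61 to 1.20. The cause was not tested. CecC and AttD rest on 0 to 13 reads a library in knockdown ZT16.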
